A study of Ovis aries with 16 samples.

Results

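The genes described here encode 5 enzymes or carrier proteins of serine, glycine and one-carbon metabolism: *PSAT1* (ENSOARG00020002356), *PSPH* (ENSOARG00020014694), *GCSH* (ENSOARG00020003523), *AMT* (ENSOARG00020020285) and *MTRR* (ENSOARG00020022449). They were picked by name from the study's list of genes that differed between hypoxic and normoxic pregnancy in these same livers, and they are 5 of the 26478 genes in the count table and 5 of the 8580 genes that passed the filter on low counts. All 5 passed that filter. Because the comparison of hypoxic with normoxic livers chose them, their differences between those groups are described without a test. Sex, and the relations between the genes within a group, played no part in the choice and were tested.

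Liver RNA of 16 Welsh Mountain sheep fetuses was sequenced in bulk, from tissue taken at 0.9 of gestation (about day 130 per the labels, with a later day given in the paper's methods). The ewes carried single fetuses and spent 30 days of late gestation in normoxia (CON, *n* = 9; 5 male and 4 female fetuses) or in hypoxia at 10% inspired O2 (HOX, *n* = 7; 3 male and 4 female fetuses). Hypoxia was imposed through the ewe, so the fetal exposure is an indirect one. Each library was made from 1 fetal liver, and total counts ranged from 23955166 to 33952503 reads. The 5 genes had 270 to 3998 reads per liver. HOX animal 1 stood apart from the other libraries, with a score of 64.44 on the first principal component of log2 expression against −15.65 to 6.23 for the other 15 livers, so the results that it moves are given with and without it. Levels are in CPM (reads of a gene relative to the library total, with library sizes scaled by the TMM method), and differences are log2 coefficients of edgeR's model with their standard errors (SE). Levels of different genes were not compared, because gene lengths were not used.

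Serine is made from the glycolytic intermediate 3-phosphoglycerate in a short pathway in which PHGDH acts first, the aminotransferase PSAT1 acts next and the phosphatase PSPH releases free serine. Serine hydroxymethyltransferases turn serine into glycine, and the mitochondrial glycine cleavage system breaks glycine down to carbon dioxide and ammonia while it loads a one-carbon unit on to tetrahydrofolate. In that system GCSH is the lipoyl-bearing carrier protein and AMT is the aminomethyltransferase that makes methylene-tetrahydrofolate. MTRR reactivates the cobalamin cofactor of methionine synthase, the enzyme that joins the folate cycle to the methionine cycle. The fetal liver is known for active exchange of serine and glycine with the placenta.

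All 5 genes had a lower mean in HOX than in CON livers, and in each gene all 7 HOX livers were below the CON mean. The log2 differences ran from −0.86 for *PSAT1* to −0.28 for *MTRR*, with a median of −0.45. The median of all 8580 genes was 0.01, and 48.8% of them were lower in HOX. Because the 5 genes were chosen on this difference, their distance from the other genes cannot be read as a result. None of the 5 genes separated the groups completely. Of all genes, 6 had every HOX liver below every CON liver, which is 0.0699% of those tested.

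*PSAT1*, the aminotransferase of serine synthesis, had the largest difference of the 5. In CON animals 1 to 9 its level was 46.0, 46.2, 46.6, 53.3, 54.1, 66.7, 47.9, 50.4 and 49.8 CPM. In HOX animals 1 to 7 it was 13.7, 18.4, 20.3, 39.5, 46.1, 36.2 and 23.5 CPM. The CON livers were close together apart from animal 6, whereas the HOX livers ranged from far below every CON liver (animals 1, 2, 3 and 7) to the edge of the CON range (animal 5). The means were 51.2 ± 6.51 CPM in CON (SD, *n* = 9) and 28.2 ± 12.2 CPM in HOX (SD, *n* = 7), and the SD was 12.7% of the mean in CON and 43.3% in HOX. The log2 difference was −0.86 (SE 0.21), or 0.551 times the CON level, at rank 34 from the lowest of the 8580 genes. Overlap between the groups rested on CON animal 1 (46.03 CPM) and HOX animal 5 (46.06 CPM). With either left out, the groups did not overlap in *PSAT1*. Of the 8580 genes, 10 had no overlap without CON animal 1 and 21 without HOX animal 5, *PSAT1* among them. Without HOX animal 1 the difference was −0.74 (SE 0.18). Library size moved with *PSAT1* among HOX livers: animals 1, 2 and 3 had the lowest levels and the largest totals of the group (33952503, 31788782 and 29884196 reads), while animals 4, 5 and 6 had the highest levels and totals of 24114914, 23955166 and 25055592 reads. Animal 7, with 24525836 reads, had a low level in a small library, and the part of library size in the result was not tested.

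*PSPH*, the phosphatase that completes serine synthesis, differed by nearly as much but varied widely in both groups. Its level was 18.0, 19.4, 26.6, 54.7, 32.7, 31.6, 53.8, 25.02 and 43.7 CPM in CON animals 1 to 9. The HOX animals 1 to 7 had 20.7, 12.9, 11.8, 26.4, 26.4, 15.9 and 18.9 CPM. CON animals 1, 2 and 8 lay within the HOX range, 3 HOX livers (animals 2, 3 and 6) lay below every CON liver, and 6 CON livers lay above every HOX liver. The means were 33.96 ± 13.8 CPM in CON and 19.0 ± 5.93 CPM in HOX (SD). The log2 difference was −0.84 (SE 0.25), or 0.559 times the CON level, and it was −0.86 (SE 0.27) without HOX animal 1. The residual variation of *PSPH* was higher than that of 90.1% of all genes tested (coefficient of biological variation 0.344, median of all genes 0.197), and that of *PSAT1* was higher than 82.9%. The other 3 genes varied less than the median gene.

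**Figure D1:**
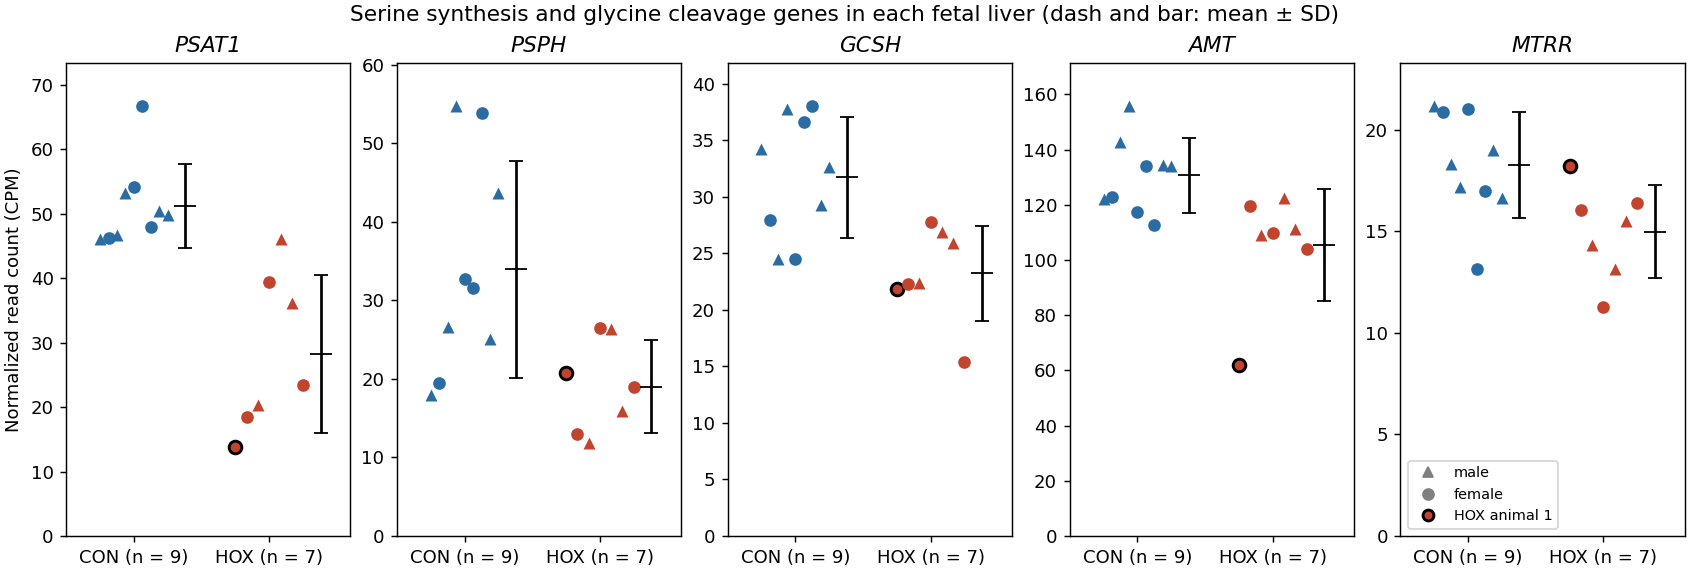
Normalized read counts (CPM, linear axis from 0) of *PSAT1*, *PSPH*, *GCSH*, *AMT* and *MTRR* in each of the 9 CON and 7 HOX livers, with triangles for male and circles for female fetuses, a black rim on HOX animal 1, and the mean ± SD beside each group. The HOX *PSAT1* levels spread from 13.7 to 46.1 CPM and meet the CON levels (46.0 to 66.7 CPM) at their lower edge, and HOX animal 1 lies far below all other livers for *AMT* but is the highest HOX liver for *MTRR*.

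*GCSH*, the carrier protein of glycine cleavage, had a level of 34.2, 28.0, 24.5, 37.7, 24.5, 36.6, 38.02, 29.2 and 32.6 CPM in CON animals 1 to 9. In HOX animals 1 to 7 the level was 21.8, 22.3, 22.4, 27.8, 26.9, 25.9 and 15.4 CPM. Of the 7 HOX livers, 4 lay below every CON liver, and HOX animals 4, 5 and 6 overlapped with CON animals 3 and 5. The means were 31.7 ± 5.37 CPM in CON and 23.2 ± 4.20 CPM in HOX (SD), a log2 difference of −0.45 (SE 0.13), or 0.732 times the CON level. HOX animals 4, 5 and 6, which were highest for *GCSH*, were also the 3 highest HOX livers for *PSAT1*. Pearson's *r* of *PSAT1* and *GCSH* in HOX livers was 0.56 (exact permutation *P* = 0.182, adjusted *P* = 0.428). These animals also had small libraries, and the part of library size was not tested.

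*AMT*, the aminomethyltransferase of the same system, had a level of 122, 123, 143, 156, 117, 134, 113, 134 and 134 CPM in CON animals 1 to 9. The level in HOX animals 1 to 7 was 61.8, 120, 109, 110, 122, 111 and 104 CPM. Of the HOX livers, 5 lay below every CON liver by small margins, except for animal 1, which was far below. The means were 130.6 ± 13.4 CPM in CON and 105 ± 20.2 CPM in HOX (SD), and the log2 difference was −0.31 (SE 0.12). HOX animal 1 set much of its size: without that liver the HOX mean was 113 ± 6.92 CPM (SD, *n* = 6) and the log2 difference was −0.21 (SE 0.08). The other 6 HOX livers all remained below the CON mean.

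*MTRR*, the reductase that serves methionine synthase, had the smallest difference. Its level in CON animals 1 to 9 was 21.2, 20.9, 18.3, 17.2, 21.0, 13.2, 17.0, 19.0 and 16.6 CPM. In HOX animals 1 to 7 it was 18.2, 16.0, 14.3, 11.3, 13.1, 15.5 and 16.4 CPM. The groups overlapped widely, since HOX animal 1 was above 4 CON livers and CON animal 6 was below 5 HOX livers. The means were 18.3 ± 2.62 CPM in CON and 15.0 ± 2.29 CPM in HOX (SD), a log2 difference of −0.28 (SE 0.12), which became −0.33 (SE 0.12) without HOX animal 1. HOX animal 1 thus had the lowest *PSAT1* and *AMT* of all 16 livers and the highest *MTRR* of the HOX livers.

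Whether the levels depended on fetal sex was tested with edgeR's quasi-likelihood model across all 8580 genes, with treatment as a covariate. None of the 5 genes was called at an adjusted *P* under 0.15, and 2 genes were called in all (0.0233% of those tested). The male minus female log2 difference was 0.16 for *PSAT1* (SE 0.20, edgeR adjusted *P* = 0.976) and 0.19 for *AMT* (SE 0.11, edgeR adjusted *P* = 0.974). It was −0.08 for *PSPH* (SE 0.25), 0.08 for *GCSH* (SE 0.13) and −0.03 for *MTRR* (SE 0.12), with adjusted *P* values of 0.988, 0.987 and 0.988 in the same edgeR fit. At an unadjusted *P* under 0.05, 267 genes passed, and none of the 5 was among them.

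The difference between HOX and CON livers was then compared between the sexes. For *PSAT1* it was −1.17 (SE 0.30) in female fetuses, where the mean was 53.7 ± 9.30 CPM in CON (*n* = 4) and 23.8 ± 11.2 CPM in HOX (*n* = 4). In male fetuses it was −0.52 (SE 0.22), with means of 49.2 ± 2.96 CPM in CON (*n* = 5) and 34.2 ± 13.0 CPM in HOX (*n* = 3). The male difference minus the female one was 0.65 on the log2 scale (SE 0.39), which did not pass the threshold (edgeR adjusted *P* = 0.999, unadjusted *P* = 0.119). Single HOX livers moved this value: it was 1.00 without animal 4, 0.91 without animal 3, 0.47 without animal 1 and 0.37 without animal 5. It did not pass the threshold in any of these fits (edgeR adjusted *P* = 0.907, 0.998, 1.000 and 1.000 in the same order, unadjusted *P* = 0.0072, 0.0265, 0.207 and 0.367). For *PSPH* this interaction was −0.10 (SE 0.53), for *GCSH* 0.20 (SE 0.27), for *AMT* 0.03 (SE 0.23) and for *MTRR* −0.15 (SE 0.25). With SE of this size, an interaction as large as the treatment difference itself could not have been told from 0 in any of these 4 genes. No gene was called for the interaction by edgeR (0% of 8580), 281 passed at an unadjusted *P* under 0.05, DESeq2 called 6 and limma-voom called 0.

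**Figure D2:**
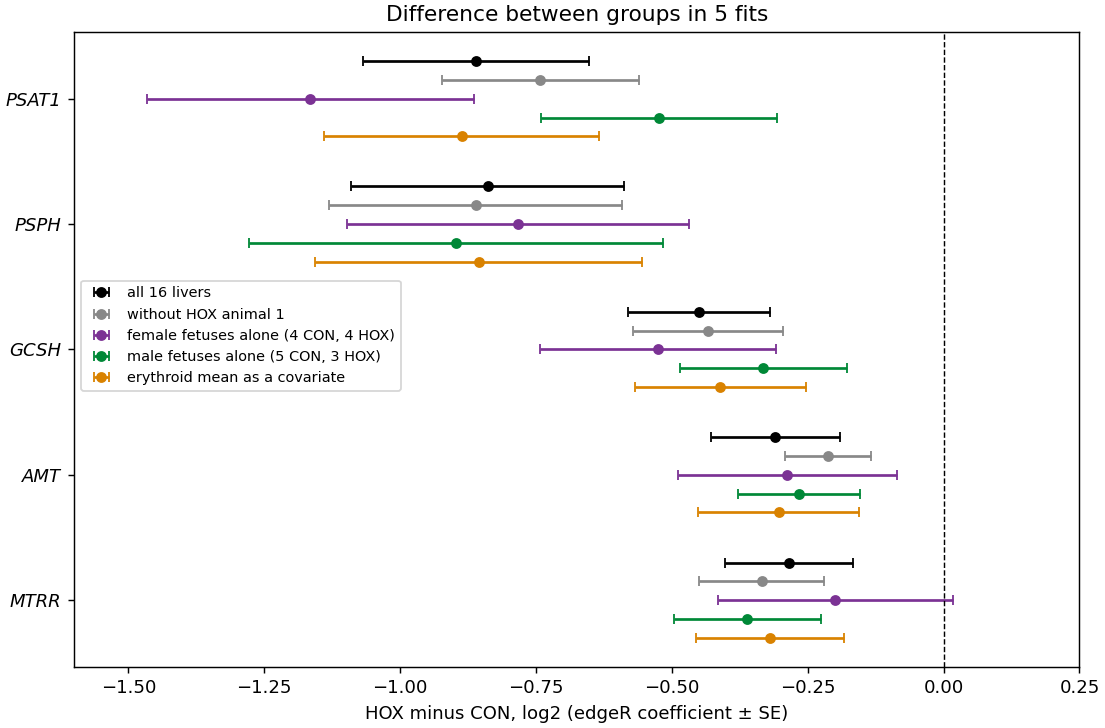
HOX minus CON log2 difference (edgeR coefficient ± SE) of the 5 genes in all 16 livers, without HOX animal 1, in female and in male fetuses alone, and with the mean of 4 erythroid genes as a covariate. Every point lies below 0, but the SE bar of *MTRR* in female fetuses crosses 0. *PSAT1* runs from −0.52 in males to −1.17 in females, and *AMT* lies closer to 0 without HOX animal 1.

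Within a group, the choice of genes on the group difference plays no part, so the relations between the 5 genes were examined in CON and in HOX livers separately (20 relations, exact permutation tests on log2 CPM, two-sided). *MTRR* ran against the other 4 genes in both groups although it was lower in HOX along with them. Its Pearson's *r* with *PSAT1*, *PSPH*, *GCSH* and *AMT* was −0.73, −0.52, −0.57 and −0.35 in CON livers and −0.77, −0.44, −0.62 and −0.58 in HOX livers. Without HOX animal 1 the HOX values were −0.64, −0.67, −0.69 and −0.14. The value with *PSPH* was −0.09 without HOX animal 4. All 4 were below 0 in each group whichever single liver was left out. The value with *AMT* was 0.08 without HOX animals 1 and 5, the livers farthest from the median *AMT*. Among the other 4 genes, all 6 pairs had a positive *r* in CON (0.09 to 0.48) and 5 of 6 in HOX (−0.14 to 0.65). Signs among these pairs changed when single livers were left out. Without HOX animal 1 the 1 negative pair, *PSPH* with *AMT*, was at 0.13, so that all 6 were positive. The number of positive CON pairs was 4 of 6 without animal 4 (*GCSH* with *AMT* at −0.26 and *PSPH* with *AMT* at −0.20) and 5 of 6 without animal 5 (*GCSH* with *AMT* at −0.13) or animal 6 (*PSAT1* with *GCSH* at −0.0039). None of the 20 relations passed an adjusted *P* of 0.05 (lowest 0.401 for Pearson's *r* and 0.135 for Spearman's rho, exact permutation tests).

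The pair with the strongest *r* in both groups was *PSAT1* and *MTRR*. In HOX livers *r* was −0.77 (exact permutation *P* = 0.0415) and rho −0.79 (exact permutation *P* = 0.0480), and *r* was −0.61 without HOX animals 5 and 1, the livers farthest from the median *PSAT1*. In CON livers *r* was −0.73 (exact permutation *P* = 0.0361) and rho −0.47 (exact permutation *P* = 0.213). The CON relation rested on animal 6, which had the highest *PSAT1* and the lowest *MTRR* of its group: *r* was −0.18 without it, and −0.63 without animals 6 and 5. *GCSH* and *MTRR* in HOX livers had the strongest rank order of all 20 relations (rho −0.93, exact permutation *P* = 0.00675, adjusted *P* = 0.135), with *r* at −0.62 (exact permutation *P* = 0.138). The Benjamini-Hochberg adjusted *P* of both *PSAT1* relations was 0.401 for *r* and 0.386 for rho by the exact permutation test.

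The serine synthesis genes *PSAT1* and *PSPH* had an *r* of 0.28 in CON and 0.53 in HOX livers (exact permutation *P* = 0.491 and 0.214). HOX animal 1, with the lowest *PSAT1* of the group and a middling *PSPH*, lowered the HOX value, which was 0.84 without it. The reverse held for *PSAT1* and *AMT*, whose *r* in HOX livers was 0.65 with animal 1 (exact permutation *P* = 0.0601) and 0.25 without it. The glycine cleavage genes *GCSH* and *AMT* had an *r* of 0.09 in CON and 0.23 in HOX livers (exact permutation *P* = 0.807 and 0.509), with a rho of −0.12 and 0.61 (exact permutation *P* = 0.776 and 0.167). Single livers moved these values: the HOX *r* was 0.56 without animal 1 and 0.49 without animal 7, and the CON *r* was −0.26 without animal 4, −0.13 without animal 5 and 0.41 without animal 7.

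**Figure D3:**
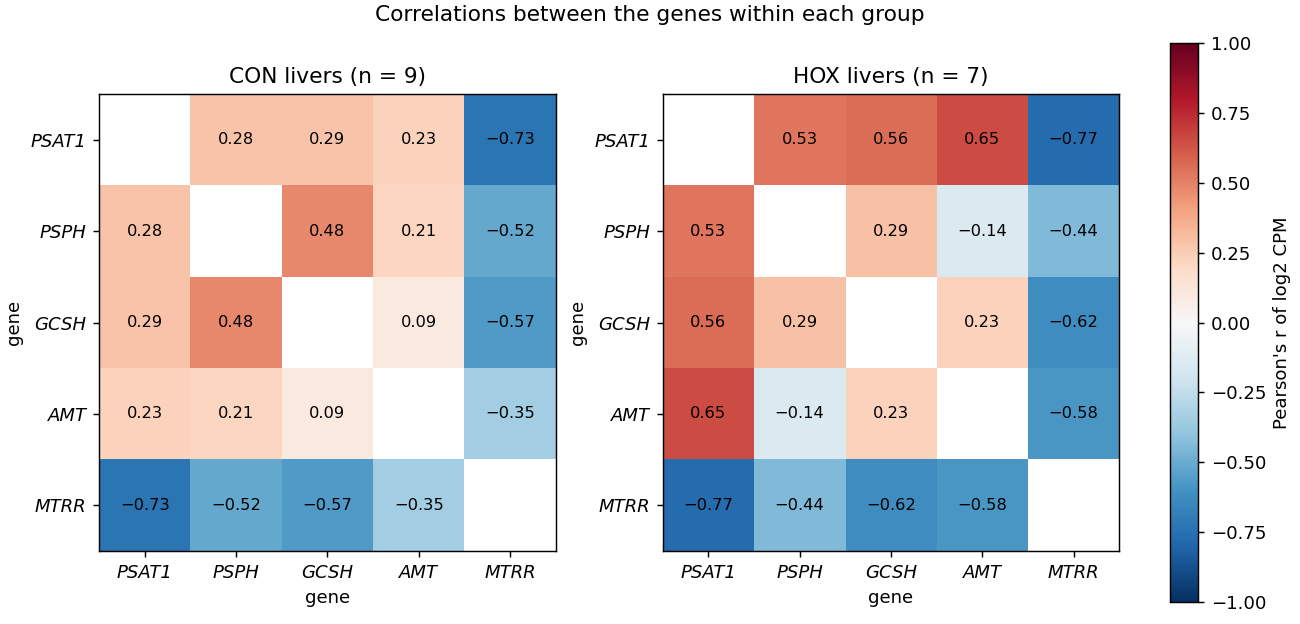
Pearson's *r* of log2 CPM between each pair of the 5 genes in the 9 CON livers and in the 7 HOX livers, on a colour scale from −1 to 1. The row and column of *MTRR* are negative in both groups (−0.73 to −0.35 in CON, −0.77 to −0.44 in HOX), and the other pairs are positive except *PSPH* with *AMT* in HOX (−0.14).

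Genes whose levels ran most like each of the 5 were looked for among all 8579 other genes after the group means were subtracted, over the 16 livers, and those with a symbol and the highest *r* are named as a description. Symbols were available only for genes on the study's list of differing genes, so closer genes without a symbol were passed over. The points share the libraries and their depth. For *PSAT1* they were *TMEM255A* (*r* = 0.87, rank 6), *COL26A1* (0.80, rank 33) and *SEC62* (0.78, rank 50), and these values were 0.79, 0.66 and 0.71 without HOX animal 1. For *PSPH* they were *PPP1R1A*, an inhibitor of protein phosphatase 1 (*r* = 0.82, rank 2), *PET100*, an assembly factor of cytochrome oxidase (0.73, rank 12), and *ND4*, a subunit of complex I encoded by mitochondrial DNA (0.67, rank 45). They kept values of 0.82, 0.74 and 0.71 without HOX animal 1. *GCSH* ran with *TMA7* (*r* = 0.69, rank 26), *TMEM223* (0.68, rank 37) and *LSM4*, a component of the spliceosome (0.67, rank 40). These values were 0.69, 0.69 and 0.80 without HOX animal 1. *AMT* ran with *PEMT*, which uses S-adenosylmethionine to methylate phosphatidylethanolamine (*r* = 0.88, rank 50), and with *IQSEC1* (0.88, rank 53). Both relations leaned on HOX animal 1, since without it they were 0.63 and 0.38. *MTRR* ran with *NCKAP1*, a subunit of the WAVE actin-regulatory complex (*r* = 0.78, rank 28), *FUT10* (0.59, rank 325) and *ASPN* (0.58, rank 343). These values were 0.74, 0.49 and 0.76 without HOX animal 1. Unlike *MTRR*, *NCKAP1* (log2 difference 0.32, SE 0.10) and *ASPN* (0.38, SE 0.12) had a higher mean in HOX.

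By the same measure, ranks among *PSAT1*, *PSPH*, *GCSH* and *AMT* ran from 498 to 4388 of 8579. *AMT* was at rank 498 for *PSAT1* (*r* = 0.59), and at rank 2874 without HOX animal 1 (*r* = 0.17). *PSAT1* was at rank 574 for *GCSH* (*r* = 0.44), *GCSH* at rank 654 for *PSPH* (*r* = 0.40), and *PSPH* at rank 1669 for *PSAT1* (*r* = 0.36), or 719 without HOX animal 1 (*r* = 0.52). *AMT* was at rank 2388 for *GCSH* (*r* = 0.18), and at rank 4145 for *PSPH* (*r* = 0.01). Counted from the lowest *r*, *MTRR* was at rank 98 for *GCSH* (*r* = −0.59), 200 for *PSAT1* (*r* = −0.65), 245 for *PSPH* (*r* = −0.48) and 1574 for *AMT* (*r* = −0.47, or −0.29 without HOX animal 1).

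Of 67 genes listed for serine, glycine, folate and methionine metabolism, 14 could be read, because symbols were available only for genes on the study's list of differing genes. These 14 include the 5 genes above, were chosen on the same group difference and are described without a test. Of the 9 others, 7 had a lower and 2 a higher mean in HOX livers. *ADK*, which clears the adenosine released by the methionine cycle, had 76.7 ± 15.6 CPM in CON and 51.5 ± 8.69 CPM in HOX (SD; log2 difference −0.57, SE 0.14). *PEMT* had 108 ± 16.9 and 76.0 ± 24.4 CPM (−0.51, SE 0.18), and the difference was −0.38 (SE 0.13) without HOX animal 1. Among the cofactor genes, *MMAB*, an enzyme of adenosylcobalamin synthesis, had 23.5 ± 2.52 and 17.7 ± 4.11 CPM (−0.41, SE 0.13).

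The 3 readable genes for products made from glycine were all lower in HOX. *GSS*, glutathione synthetase, had 31.0 ± 5.35 CPM in CON and 19.4 ± 3.04 CPM in HOX (log2 difference −0.68, SE 0.12). *ALAS1*, which condenses glycine with succinyl-CoA in haem synthesis, had 66.6 ± 14.4 and 47.7 ± 9.53 CPM (−0.48, SE 0.14). *GLYAT*, which conjugates glycine to acyl groups, had 14.2 ± 4.35 and 6.17 ± 4.25 CPM (−1.21, SE 0.35) and was at 1.22 CPM in HOX animal 1, without which the difference was −1.02 (SE 0.28). The transporters went the other way and varied widely among HOX livers. *SLC38A2*, a carrier of small neutral amino acids, had 14.2 ± 3.72 CPM in CON and 26.7 ± 16.6 CPM in HOX (0.92, SE 0.27), with 62.9 CPM in HOX animal 1. Without that liver the HOX mean of *SLC38A2* was 20.7 ± 4.82 CPM (SD, *n* = 6) and the difference was 0.55 (SE 0.19). *SLC6A9*, a glycine transporter that erythroid cells also express, had 15.5 ± 6.01 and 26.2 ± 17.2 CPM (0.75, SE 0.33; 0.90, SE 0.30 without HOX animal 1). The first enzyme of serine synthesis, *PHGDH*, and the glycine decarboxylase *GLDC* were among the 53 listed genes not analysed here.

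Cell type markers were read to see what else moved with the 5 genes, again only those on the study's list. Of 19 hepatocyte markers 10 could be read, all 10 were lower in HOX (median log2 difference −0.51), and their summed level was 21938 to 32968 CPM in CON and 15514 to 24597 CPM in HOX livers. The median of the 5 genes was −0.45. Both sets came from that list of differing genes, so the nearness of the medians cannot be read as a result. In bulk tissue fewer cells of a type and less RNA per cell cannot be told apart. Of 9 erythroid markers, 4 could be read (*ANK1*, *CPOX*, *EPOR* and *TFRC*), all 4 were higher in HOX (median 0.73), and their sum was 170 to 533 CPM in CON and 259 to 772 CPM in HOX. The macrophage marker *CD163* was lower (1 of 4 read, 254 to 419 CPM in CON and 61.9 to 326 CPM in HOX). Of the endothelial and stromal markers (3 of 6 read), *CD34* and *ASPN* were higher and *TGFBI* lower, with sums of 136 to 212 CPM in CON and 113 to 228 CPM in HOX. None of the markers read was at 0 in any liver. HOX animal 1 had the lowest sum of the 7 HOX livers in each of these lists. The part of the hepatocyte, macrophage, endothelial and stromal markers in the result was not tested.

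The mean of the 4 erythroid genes was also set against the 5 genes within each group, a comparison added after the data were seen. In CON livers *AMT* ran against it (*r* = −0.63, exact permutation *P* = 0.0715; rho −0.62, *P* = 0.0857) and *MTRR* ran with it (*r* = 0.64, exact permutation *P* = 0.0608; rho 0.67, *P* = 0.0589), and none of the 10 relations passed after adjustment (lowest adjusted *P* = 0.358 for *r* and 0.429 for rho). Without CON animals 5 and 1, the 2 livers farthest from the median of the erythroid mean, these values of *r* were −0.48 and 0.38. In HOX livers *r* for *AMT* was 0.38 with animal 1 and −0.74 without it (exact permutation *P* = 0.514 and 0.0972). For *MTRR* it was −0.37 in HOX livers with animal 1 and −0.09 without it (exact permutation *P* = 0.408 and 0.875). Leaving out HOX animals 4 and 1, farthest from the median erythroid mean, gave −0.80 for *AMT* and 0.91 for *MTRR*. The same omission gave −0.82 for *GCSH*, −0.47 for *PSAT1* and −0.26 for *PSPH*. With so few livers left, these values can be large for any gene. With the erythroid mean as a covariate in the edgeR model, the HOX minus CON difference was −0.89 (SE 0.25) for *PSAT1* and −0.86 (SE 0.30) for *PSPH*. It was −0.41 (SE 0.16) for *GCSH*, −0.30 (SE 0.15) for *AMT* and −0.32 (SE 0.14) for *MTRR*. Each was within 1 SE of the value without the covariate. The 4 erythroid genes were on the study's list of differing genes, and the model used the same slope in both groups. This fit thus cannot tell a part of erythroid content apart from hypoxia.

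**Figure D4:**
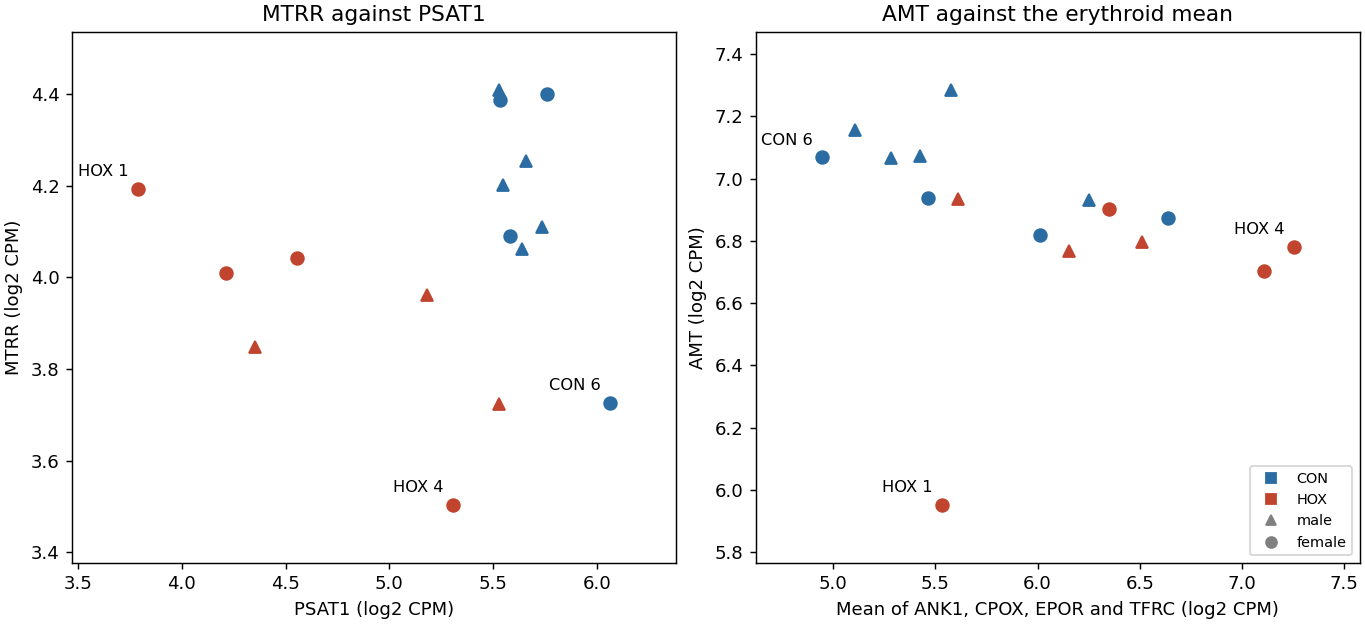
Log2 CPM of *MTRR* against *PSAT1* (left) and of *AMT* against the mean of *ANK1*, *CPOX*, *EPOR* and *TFRC* (right) in each CON and HOX liver, with triangles for male and circles for female fetuses. CON animal 6 stands at the high end of *PSAT1* with a low *MTRR*, and HOX animal 1 lies far below the other livers for *AMT* at an erythroid mean of 5.53.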

How the data were processed

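Per the paper's methods and the labels, the authors extracted RNA from frozen fetal liver, made polyA-enriched libraries, sequenced paired reads of 2 × 150 bases and mapped them with STAR 2.7.10b to the sheep genome ARS-UI_Ramb_v1.0, using Ensembl gene models. The authors deposited raw counts of reads per gene for 26478 genes and 16 livers, with no normalization or filter. The counting rule and the use of strand are not given in the sources used here, so reads shared with near-identical copies of a gene could have been split or lost. In another assembly (ARS-UI_Ramb_v3.0), 0 annotated genes overlap any of the 5 genes.

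The filter kept the 8580 genes that reached 250 reads in 8 or more livers. These were modelled in edgeR 4.0.16 (R 4.3.3; TMM, quasi-likelihood, robust=FALSE), and *P* values were Benjamini-Hochberg adjusted over all of them, with the study's threshold of 0.15. Sex was tested with treatment as a covariate, and the interaction in a model of both. Log2 CPM used a prior count of 2, and correlations used exact permutation over pairings (scipy 1.17.1). DESeq2 1.42.0, limma-voom (limma 3.58.1) with sample quality weights, other normalization and filters, covariates, each sex alone and leaving out each liver were alternatives. On simulated counts of the 8580 genes with 200 changed by 1 on the log2 scale, the edgeR sex test recovered 186 with 26 false calls, and the interaction test, with changes of 2, recovered 191 with 32.

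Genes are listed by Ensembl identifier alone, and symbols were read from the identifier and symbol columns of the study's list of differing genes (487 identifiers, 438 with a symbol), whose other columns were not used. Genes named are the 5 members with every liver's value, readable genes of the pathway list, the 3 most alike named genes per member, and cell type markers. Some results under these rules are not reported here. The members and lists were chosen with earlier results of these data known. The libraries are separate fetuses, and no pair agreed within counting noise (lowest chi-square per degree of freedom 38.8). CON and HOX livers of the same animal number were not closely alike (*r* of deviations −0.31 to 0.15 over 7 pairs). Whether they shared an order of processing was not tested.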

Additional observations from a re-analysis of the deposited data

Results flagged for a closer look

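In all, 3 values lay apart from the rest of their group by Dixon's gap criterion at the 95% level, among 10 groups examined (5 genes in CON and in HOX livers). Chance alone gives about 1 such value in 20 groups. *PSAT1* in CON animal 6 was at 6.06 log2 CPM, above the other 8 CON livers, and that liver also carried the CON relation between *PSAT1* and *MTRR*. *GCSH* in HOX animal 7 was at 3.95 log2 CPM, below the other 6 HOX livers. *AMT* in HOX animal 1 was at 5.95 log2 CPM, below the other 15 livers, in the library that also stood apart on the first principal component.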

How the results depend on the processing

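The HOX minus CON differences of the 5 genes stayed below 0 in all 26 alternatives. They ran from −1.17 to −0.52 for *PSAT1*, −0.92 to −0.71 for *PSPH*, −0.53 to −0.33 for *GCSH*, −0.34 to −0.21 for *AMT* and −0.36 to −0.20 for *MTRR*. The genes were chosen on this difference and the alternatives reuse the same livers, so the shared sign is not an independent result. In female fetuses alone the difference was −0.29 (SE 0.20) for *AMT* and −0.20 (SE 0.22) for *MTRR*. In male fetuses alone it was −0.27 (SE 0.11) for *AMT* and −0.36 (SE 0.14) for *MTRR*. With the animal number as a replicate block the differences were −0.98 for *PSAT1*, −0.78 for *PSPH*, −0.46 for *GCSH*, −0.32 for *AMT* and −0.29 for *MTRR*. In that setting 0 genes were called between the sexes (439 at an unadjusted *P* under 0.05). Genes called between the sexes, 2 in the edgeR fit, numbered 7 with DESeq2, 1 with the minimum of 250 reads in more than 8 livers, and 1 to 2 with a liver left out, where the count was 1 without CON animal 2, 5, 6, 7 or 8 or HOX animal 2. For the interaction, 0 in the edgeR fit became 6 with DESeq2 and 0 to 3 with a liver left out (3 without HOX animal 4). Genes with no overlap between CON and HOX livers, 7 in all, numbered 8 to 22 with a liver left out, since fewer livers leave less room for overlap. The count was 20 or more without CON animal 5, HOX animal 1 or HOX animal 5, and 11 to 17 without CON animal 2, 6, 7 or 8 or HOX animal 2, 3, 4, 6 or 7. No relation among the genes passed an adjusted *P* of 0.05 under any alternative. The cause of the other changes was not tested.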
